A study of Mus musculus with 6 samples.

Results

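Heat shock proteins are chaperones, proteins that help others fold, keep them from clumping and pass damaged ones on for disposal. The genes described here encode the main chaperones of the cytosol and of the mitochondrial matrix, together with some of their partners. They were given as a list of 10 symbols, and 9 of the 10 had a row among the 21436 genes of the deposited expression table. Hspb1, a small heat shock protein gene, was not analysed here. All 9 passed the filter for testing (a mean of at least 1 FPKM), which left 10055 genes.

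The libraries are RNA-seq of the mouse line 3T3-L1, wild-type embryonic fibroblasts that serve as a preadipocyte model. The cells sat below a porous membrane of 0.4 µm for 72 h in differentiation medium, with human umbilical cord mesenchymal stem cells in the upper chamber (co-culture, 3 libraries) or with an empty upper chamber (alone, 3 libraries). The medium was the same in both groups and held 2 µM rosiglitazone, 1 µM dexamethasone, 0.5 mM IBMX, 10 mg/L insulin and 10% serum in HG-DMEM. The comparison asks how the human cells, which share medium but do not touch the mouse cells, altered mouse gene expression. Nothing in the labels ties the replicates to cultures of their own, and the p-values below therefore cover the variation among these libraries, which may be technical.

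In the cytosol, HSP70 proteins bind short exposed stretches of unfolded chains. J-domain proteins such as Dnajb1 bring them their clients, and HSP110 proteins such as Hsph1 release the spent nucleotide so that the cycle can start again. HSP90 proteins act later, on clients such as kinases and steroid receptors, among them the glucocorticoid receptor that dexamethasone binds. In the mitochondrial matrix, Hspd1 (HSP60) forms a barrel in which proteins fold, and Hspe1 (HSP10) is its lid. Heat and other protein damage raise many of these genes through heat shock factor 1, Hsf1, which binds repeats of the unit GAA in alternating orientation.

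The sequences below are shown because these genes are known as targets of Hsf1 and because Hspd1 and Hspe1 lie head to head. They come from RefSeq on GRCm38.p6, whose promoter windows (250 bases before to 50 after a start site) matched 6 of the 9 genes. Hspa8, Hsp90aa1 and Hsp90ab1 had no window in the set used here and were not searched. Both strands were searched for 2 units of the repeat (GAANNTTC or TTCNNGAA, each its own reverse complement) and for 3 units, which is 1 of these motifs overlapping the other by a unit. Capitals mark every match. The first stretch is the 215 bases between a start site of Hspd1, on the minus strand, and the start site of Hspe1, on the plus strand (chr1:55087933-55088147, plus strand). The next stretches are the 250 bases before Hspa1a (chr17:34972157-34972406, minus strand) and before Hspa1b (chr17:34959239-34959488, minus strand). The last is a match with 6 bases on each side near a start site of Hsph1 (chr5:149636282-149636306, minus strand).
Hspd1 and Hspe1: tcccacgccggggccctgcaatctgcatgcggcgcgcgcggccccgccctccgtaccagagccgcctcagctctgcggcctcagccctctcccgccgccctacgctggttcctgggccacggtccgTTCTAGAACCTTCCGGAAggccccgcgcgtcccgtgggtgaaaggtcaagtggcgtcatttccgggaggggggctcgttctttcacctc
Hspa1a: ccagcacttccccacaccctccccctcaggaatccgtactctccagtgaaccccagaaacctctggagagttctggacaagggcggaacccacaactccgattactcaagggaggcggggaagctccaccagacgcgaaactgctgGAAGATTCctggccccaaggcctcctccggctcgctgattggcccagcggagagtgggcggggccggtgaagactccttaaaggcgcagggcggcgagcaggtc
Hspa1b: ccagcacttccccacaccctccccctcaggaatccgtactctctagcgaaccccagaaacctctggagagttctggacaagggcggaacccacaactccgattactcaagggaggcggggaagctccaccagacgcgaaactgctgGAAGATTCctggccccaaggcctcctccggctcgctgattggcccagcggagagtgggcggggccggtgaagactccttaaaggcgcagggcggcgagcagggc
Hsph1: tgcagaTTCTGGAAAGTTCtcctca

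The stretch between Hspd1 and Hspe1 held 3 overlapping matches that made up 18 capital letters in a row. The 6 genes had 9 promoter windows, since Hspd1, Hsph1 and Dnajb1 each had more than 1 annotated start. A match of 3 units was present in 4 of the 9 windows, those of Hspe1 and Hsph1 and 1 of Hspd1, against 0.603% of all 32851 windows. The Hsph1 match began 15 bases after one of its annotated start sites. The stretches before Hspa1a and Hspa1b differed at 3 of 250 bases and each held 1 match of 2 units, 104 bases before the start. At least 1 match of 2 units was present in 6 of the 9 windows, against 15.1% of all windows, and the windows without one were both of Dnajb1 and the other of Hspd1. The windows are not independent, as those of Hspd1 and Hspe1 hold the same site, those of Hsph1 overlap, and those of Hspa1a and Hspa1b are near copies. These matches describe letters and do not show binding.

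Of the 9 genes, 5 were called at all, against 31.8% of all tested genes: 4 were lower in co-culture (Hsph1, Hspd1, Hspe1 and Hsp90aa1), 1 was higher (Hspa1a), and 4 were not called (Hspa1b, Hspa8, Hsp90ab1 and Dnajb1). Calls are from limma on log2(FPKM + 1) at a Benjamini-Hochberg adjusted p below 0.05 over all 10055 genes. In the same fit 17.9% of all tested genes were called lower and 13.9% higher. Under quantile normalization the balance turned, with 1658 genes called higher and 1595 lower, against 1402 and 1799 in the fit used here. The 2 groups did not overlap for 5 of the 9 genes, against 46.1% of all tested genes. The median log2 change of the 9 was −0.036, beside −0.0037 over all tested genes, where the median size of a change was 0.10. FPKM counts fragments for each kilobase of a gene, scaled to the size of the library, so it is a level per length, and fold changes quoted below are ratios of mean FPKM. Fewer cells of one type and less RNA per cell cannot be told apart in such bulk samples.

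**Figure D1:**
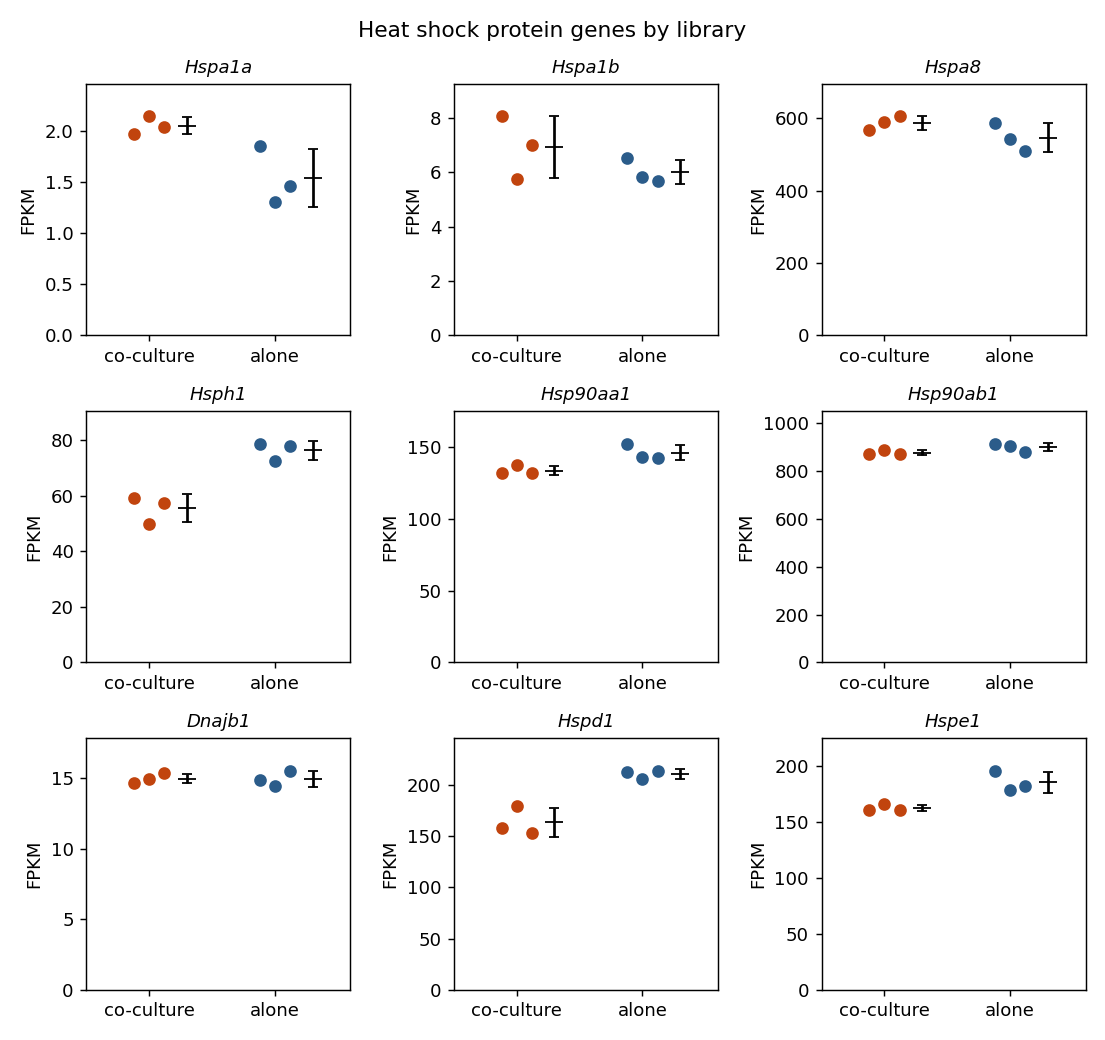
FPKM of the 9 genes in each library, with co-culture libraries at left and alone libraries at right in every panel. Points are libraries, and the bar beside them is the mean ± SD (n = 3). The groups do not overlap for Hspa1a, Hsph1, Hsp90aa1, Hspd1 and Hspe1.

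The levels of the 9 genes spanned a wide range, and the order of their means was the same in both groups. Hsp90ab1 was the highest at 875 ± 10.7 FPKM in co-culture and 897 ± 17.0 FPKM alone (SD, n = 3 each, as throughout), and Hspa8 was next at 587 ± 18.9 FPKM in co-culture and 546 ± 39.1 FPKM alone. Hspd1, Hspe1 and Hsp90aa1 followed, between 131.6 and 214 FPKM in all 6 libraries. Hspd1 and Hspe1 did not differ beyond their spread in co-culture, where the ranges were 153.5 to 180.1 FPKM and 160.9 to 166.0 FPKM, whereas in the alone libraries every Hspd1 value lay above every Hspe1 value. Hsph1, Dnajb1, Hspa1b and Hspa1a came last, in that order. Summed over the 9 genes the level was 1969 to 2032 FPKM in co-culture and 2026 to 2162 FPKM alone, so the sums overlapped.

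Hsph1, the exchange factor of the HSP110 class, had the largest change of the 9 genes in the fit of all 6 libraries. Without co-culture replicate 2 its log2 change was −0.38 and that of Hspd1 was larger, at −0.44. It had 59.1, 49.9 and 57.6 FPKM in co-culture replicates 1 to 3, against 78.8, 72.4 and 78.0 FPKM in alone replicates 1 to 3. All 3 co-culture libraries were below all 3 alone libraries. The mean was 1.38-fold lower in co-culture (log2 change −0.46, SE 0.060, adjusted p = 0.000332), a change larger in size than 97.2% of those of the tested genes. Hsph1 lies on chromosome 5 from 149616843 to 149636498 in RefSeq on GRCm38.p6.

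The mitochondrial chaperonin genes were both lower in co-culture. Hspd1 had 157.8, 180.1 and 153.5 FPKM in co-culture, against 213, 206 and 214 FPKM alone. Co-culture replicate 2 was the highest of its group and was still below every alone library. The mean was 1.29-fold lower (log2 change −0.37, SE 0.054, adjusted p = 0.000702). Hspe1 had 160.9, 166.0 and 161.1 FPKM in co-culture, against 195.9, 178.5 and 182.0 FPKM alone. Here too the groups did not overlap, and the mean was 1.14-fold lower (log2 change −0.19, SE 0.041, adjusted p = 0.00583). The genes are neighbours on chromosome 1, with Hspd1 from 55077833 to 55088243 and Hspe1 from 55088148 to 55091317, and they overlap at their 5′ ends. The stretch printed above lies between the start of Hspe1 and the other annotated start of Hspd1, at 55087932. In the GENCODE M21 annotation of the same build they share 112 exon bases on opposite strands, and since the strand setting of the counting is not given in the sources used here, reads from those bases could not be assigned with certainty.

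The HSP90 genes of the cytosol differed in their calls. Hsp90aa1, the more stress-responsive of the pair, had 131.6, 137.2 and 131.6 FPKM in co-culture, against 152.1, 143.2 and 142.4 FPKM alone. The groups did not overlap, and the mean was 1.09-fold lower in co-culture (log2 change −0.13, SE 0.038, adjusted p = 0.0262). Leaving out co-culture replicate 1 gave an adjusted p of 0.0932 and leaving out co-culture replicate 3 gave 0.0956, so this call was lost without either. Hsp90ab1, the constitutive form, had 868, 887 and 869 FPKM in co-culture, against 912, 901 and 879 FPKM alone. The ranges overlapped and the change was not called (log2 change −0.036, 95% interval −0.12 to 0.046, adjusted p = 0.488). Hsp90aa1 lies on chromosome 12 from 110691036 to 110696395 and Hsp90ab1 on chromosome 17 from 45567778 to 45573261. With 64402 to 86752 reads a library, Hsp90ab1 was the most deeply counted of the 9 genes.

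The inducible HSP70 genes were low in every library. Hspa1a had 1.98, 2.15 and 2.04 FPKM in co-culture, against 1.86, 1.31 and 1.46 FPKM alone, from 132 to 226 reads a library. The groups did not overlap, and the mean was 1.33-fold higher in co-culture (log2 change 0.27, SE 0.081, adjusted p = 0.0263). The log2 change was 0.41 with 0.1 FPKM added in place of 1, and 0.43 with 0.01 FPKM added or with limma-voom on the recovered reads. That call was lost without co-culture replicate 2 (adjusted p = 0.0781), co-culture replicate 3 (0.0648), alone replicate 2 (0.0964) or alone replicate 3 (0.0766), and also with no filter on low genes (0.133). Hspa1b had 8.05, 5.74 and 6.99 FPKM in co-culture, against 6.51, 5.83 and 5.68 FPKM alone. Co-culture replicate 1 was the highest and co-culture replicate 2 lay within the alone range. Hspa1b was not called (log2 change 0.17, 95% interval −0.037 to 0.38, adjusted p = 0.193), and single libraries moved the value both ways. It was 0.28 without co-culture replicate 2 (adjusted p = 0.0221) and 0.069 without co-culture replicate 1 (adjusted p = 0.583). These are neighbouring genes on chromosome 17, Hspa1a from 34969359 to 34972156 and Hspa1b from 34956429 to 34959238. Their coding sequences in GENCODE M21 are 99.6% identical, so the counting could have divided or dropped reads that match both, and 564 exon bases of Hspa1a also overlap the opposite-strand gene Gm20481. The separate levels of the pair are therefore uncertain.

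Hspa8, the constitutive HSP70 that also uncoats clathrin vesicles, had 567, 589 and 605 FPKM in co-culture, against 587, 544 and 509 FPKM alone. The ranges overlapped through alone replicate 1, and the change was not called (log2 change 0.10, 95% interval −0.011 to 0.22, adjusted p = 0.153). Without alone replicate 1, it was called higher in co-culture (log2 change 0.16, adjusted p = 0.0145), whereas without alone replicate 3 the log2 change was 0.054 (adjusted p = 0.445). Quantile normalization gave 0.055 (adjusted p = 0.178). Dnajb1, the J-domain partner of inducible HSP70, had 14.7, 14.9 and 15.3 FPKM in co-culture, against 14.8, 14.4 and 15.5 FPKM alone. The groups overlapped fully (log2 change 0.0028, 95% interval −0.091 to 0.097, adjusted p = 0.966), and the sign of this small value turned under median-ratio and TPM scaling. Hspa8 lies on chromosome 9 from 40801276 to 40805202 and Dnajb1 on chromosome 8 from 83608175 to 83612653. Exons of Hspa8 in GENCODE M21 overlap the small nucleolar RNA genes Snord14c, Snord14d and Snord14e by 86 to 90 bases each. The Hspa8 length behind the deposited values was 2104 bp, against 4301 exon bases in GENCODE M21. Whether those overlaps were part of the counted exons is therefore not known.

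**Figure D2:**
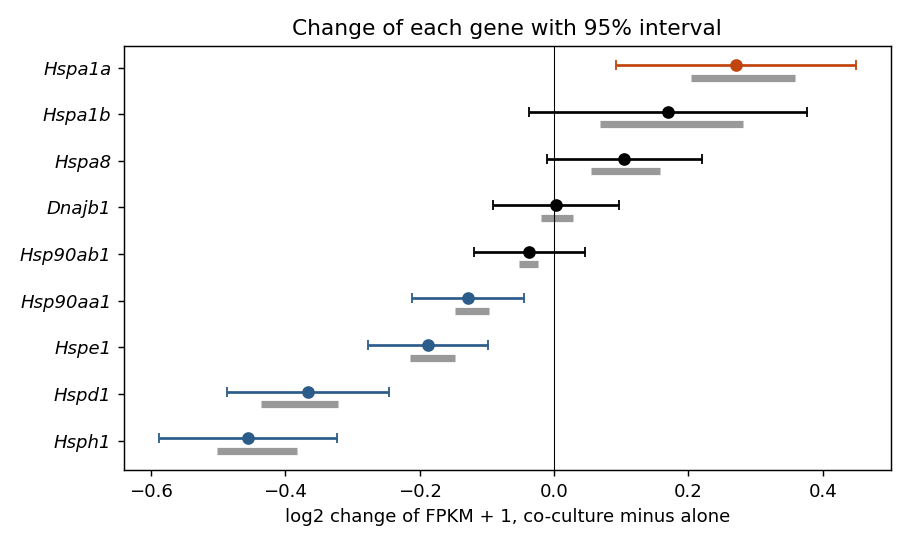
Log2 change of FPKM + 1 for each gene, co-culture minus alone, with its 95% interval from limma. Orange points were called higher in co-culture, blue points lower and black points neither, and grey bars span the values with each library left out in turn. Hsph1, Hspd1, Hspe1 and Hsp90aa1 lie below 0 with their intervals, and Hspa1a lies above 0.

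Ratios within a library compare partner genes with each other. The Hsph1 to Hspa8 ratio, of the exchange factor to its main HSP70, was 0.0948 ± 0.00975 in co-culture and 0.140 ± 0.0113 alone, a log2 difference of −0.57. The Hspd1 to Hspe1 ratio, of barrel to lid transcripts, was 1.01 ± 0.0695 in co-culture and 1.14 ± 0.0459 alone, a log2 difference of −0.18. The Hsp90aa1 to Hsp90ab1 ratio was 0.153 ± 0.00181 in co-culture and 0.163 ± 0.00391 alone, a log2 difference of −0.092. For these 3 ratios all co-culture libraries lay below all alone libraries, with a two-sided exact permutation p of 0.1 each, the smallest that 3 libraries against 3 can give (0.133 after adjustment over the 4 ratios compared). The Hspa1b to Hspa1a ratio was 3.39 ± 0.698 in co-culture and 3.95 ± 0.483 alone, with overlapping ranges and an exact permutation p of 0.4, also 0.4 adjusted. As shares of the summed FPKM of the 9 genes, Hspa8 took 28.8% to 30.2% in co-culture and 25.1% to 27.1% alone, while Hsph1 took 2.46% to 3.00% in co-culture and 3.51% to 3.85% alone. A share also depends on the other genes in the sum. The FPKM ranges of Hspa8 itself overlapped and its change was not called.

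**Figure D3:**
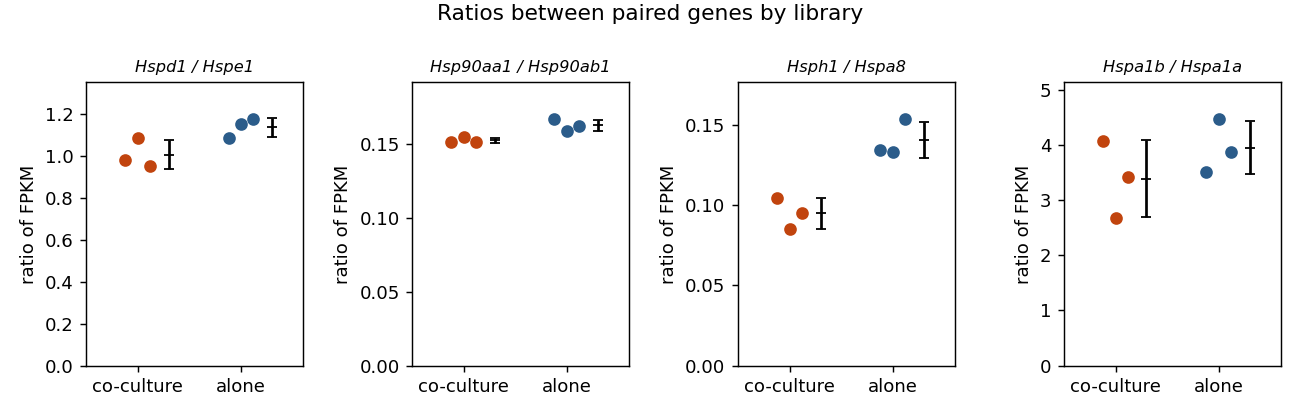
Ratio of FPKM between 4 pairs of genes in each library, with co-culture at left and alone at right in every panel. Points are libraries and bars are mean ± SD (n = 3). The groups separate for the first 3 ratios and overlap for Hspa1b to Hspa1a.

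The rest of the cytosolic folding system was read from lists of genes by role. Hsf1 itself was 1.17-fold lower in co-culture (19.3 ± 1.49 FPKM, against 22.7 ± 0.634 FPKM alone, adjusted p = 0.00968), and of the 3 tested heat shock factor and regulator genes it was the 1 called. With no filter on low genes the adjusted p of Hsf1 was 0.0655. Of 5 other tested HSP70 and HSP110 genes, Hspa4l, a relative of Hsph1, was called and was 1.34-fold lower (5.66 ± 0.171 FPKM in co-culture and 7.57 ± 0.184 FPKM alone). Of 17 tested HSP90 co-chaperones 6 fell and 1 rose, where 17.9% of all tested genes fell and 13.9% rose. Fkbp4, an immunophilin of steroid receptor complexes, was 1.31-fold lower (53.2 ± 1.43 FPKM, against 69.6 ± 1.80 FPKM alone), and Stip1, which links HSP70 to HSP90, was 1.24-fold lower (97.0 ± 0.942 FPKM in co-culture and 119.8 ± 2.48 FPKM alone). Chordc1 and Ppid fell 1.23-fold and 1.14-fold. The 1 that rose was Fkbp5, a glucocorticoid-induced immunophilin named after its values were seen (1.12-fold higher, 130.3 ± 3.69 FPKM in co-culture and 115.8 ± 2.20 FPKM alone).

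Among 16 other tested J-domain genes, partners of HSP70, 2 fell and 1 rose, against 17.9% lower and 13.9% higher over all tested genes. Dnajc27 was 1.47-fold lower in co-culture. Dnajc5 was 1.10-fold lower, a call lost without co-culture replicate 1 or 3 or alone replicate 2 or 3 (adjusted p from 0.0709 to 0.144). Dnaja1 was 1.10-fold higher, a call kept without alone replicate 1 and lost without each other library (0.0517 to 0.157). Of 9 exchange factors and other HSP70 co-chaperones, Bag2 was called higher (1.12-fold), a call lost without any one library but alone replicate 2 (adjusted p of 0.0508 to 0.0927). Of 3 other tested small heat shock protein genes, Cryab, the alpha-B crystallin gene, rose 1.27-fold (14.0 ± 0.473 FPKM in co-culture and 11.03 ± 0.586 FPKM alone). The TRiC chaperonin, which folds actin and tubulin, had 4 of its 8 subunit genes lower and 0 higher. Cct6a fell 1.16-fold and Cct7 1.13-fold, Cct8 was not called without co-culture replicate 1 (adjusted p = 0.0714) or 3 (0.0579), and the call on Cct5 was lost without each library other than alone replicate 3 (0.0624 to 0.138). Without either co-culture replicate 1 or 3 the 4 lower TRiC genes numbered 2. Those fits called 1374 and 1399 of all 10055 tested genes lower, against 1799 in the fit of all libraries. Of 6 prefoldin genes Pfdn5 rose 1.19-fold and Pfdn4 fell 1.20-fold. The 1 lower gene numbered 3 without alone replicate 2, where 1413 of all 10055 tested genes were called lower.

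Among 16 other tested genes of mitochondrial chaperones and proteases, 2 fell and 1 rose, neither a larger share than the 17.9% and 13.9% of all tested genes. Hspa9, the HSP70 of the matrix, was 1.23-fold lower (179 ± 10.1 FPKM in co-culture and 221 ± 1.80 FPKM alone, adjusted p = 0.000468), and the protease gene Lonp1 was 1.21-fold lower (44.2 ± 2.87 FPKM in co-culture and 53.5 ± 1.42 FPKM alone). Hscb rose 1.20-fold, a call lost without co-culture replicate 1 or 3 or alone replicate 2 or 3 (adjusted p of 0.0939 to 0.135). Of 19 tested heat-inducible Hsf1 target genes outside the 9, in a list that shares members with those above, 7 fell and 3 rose, with Serpinh1, the collagen chaperone, 1.24-fold lower (289 ± 5.81 FPKM in co-culture and 358 ± 5.09 FPKM alone). Of 14 endoplasmic reticulum chaperone genes 10 fell and 0 rose. Those with the smallest p were Hspa5 (1.32-fold lower), Hyou1 (1.31-fold), Manf (log2 change −0.20) and Hsp90b1 (log2 change −0.19). The median log2 change was −0.056 for the HSP90 co-chaperones, −0.10 for TRiC, −0.035 for the mitochondrial list, −0.023 for the Hsf1 targets and −0.15 for the endoplasmic reticulum list. It was −0.11 for the heat shock factors, −0.074 for the other HSP70 and HSP110 genes, −0.0070 for the J-domain genes, −0.0077 for the exchange factors, 0.12 for the small heat shock proteins and −0.10 for prefoldin.

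**Figure D4:**
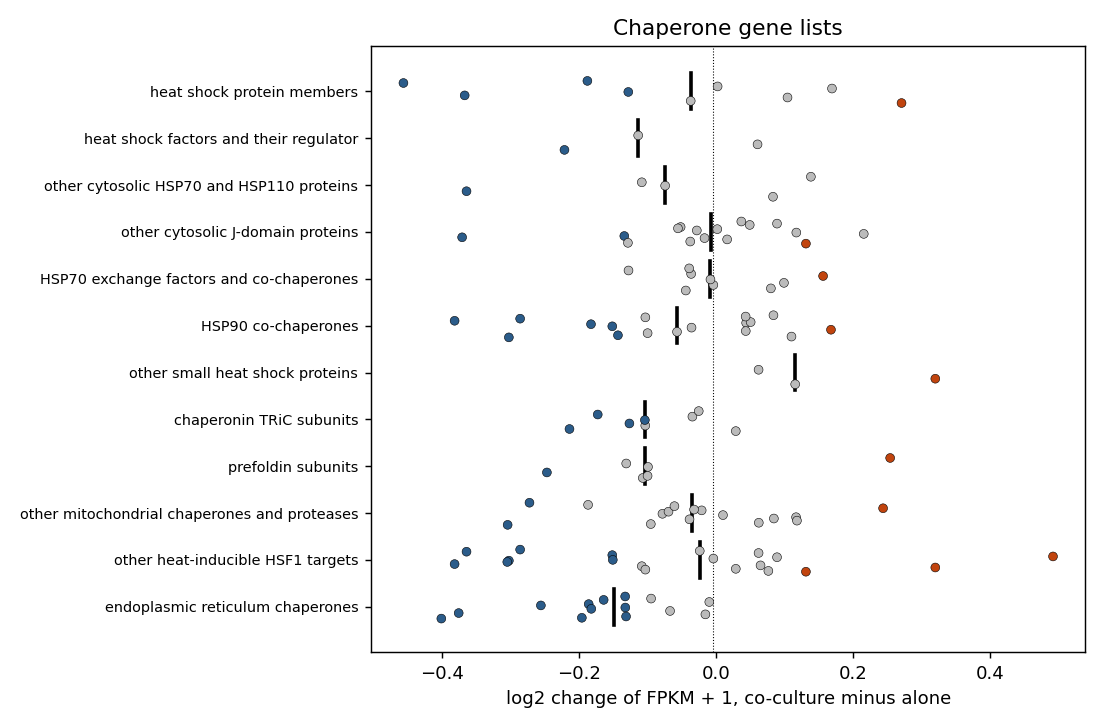
Log2 change of FPKM + 1, co-culture minus alone, for the tested genes of each chaperone list. Each point is a gene (orange called higher, blue called lower, grey not called), black ticks are list medians and the dotted line is the median of all tested genes. In the endoplasmic reticulum list all 14 genes lie below 0, against 50.9% of all tested genes. The Hsf1 target list has called genes on both sides.

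Across the 6 libraries the 5 genes whose log2(FPKM + 1) followed Hsph1 most closely were Prkx (Pearson r = 0.996), Rnasek, Slc30a5, Neat1 and Gja1 (0.993 each). These r describe 6 libraries that fall into 2 groups, and 749 of the 9671 genes compared had an r above 0.9. Gja1, the connexin-43 gene, was at 53.4 ± 3.29 FPKM in co-culture and 69.0 ± 3.14 FPKM alone.

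The libraries held 29603755 to 37612585 reads in co-culture and 36119750 to 38357563 reads alone, as recovered from the values. Of 8 fibroblast and preadipocyte markers, all tested, 4 were called higher and 2 lower, against 13.9% and 17.9% of all tested genes. These markers summed to 3383 to 3433 FPKM in co-culture and 3159 to 3271 FPKM alone, and their part in the results was not tested. Mature adipocyte markers summed to at most 0.128 FPKM in co-culture and 0.0963 FPKM alone, with 0 reads of Adipoq over the co-culture libraries and 1 over the alone libraries. Macrophage markers summed to 3.59 to 3.96 FPKM in co-culture and 3.201 to 4.13 FPKM alone, nearly all of it from Cd68. The mean of Csf1r was 0.030 FPKM in co-culture and 0.036 FPKM alone. Ptprc had means of 0.0046 and 0.010 FPKM, and Adgre1 of 0.0034 and 0.0026 FPKM, in the same order. The muscle marker Des was at 1.17 to 1.53 FPKM in co-culture and 0.869 to 1.28 FPKM alone. Of 4 blood cell markers 2 were called lower, against 17.9% of all tested genes. Blood cell markers summed to 3.71 to 17.8 FPKM in co-culture and 16.5 to 30.1 FPKM alone, and their part in the results was not tested. The 13 protein-coding genes of the mitochondrial genome took 4.82% to 4.996% of reads in co-culture and 4.40% to 4.62% alone. Their share was thus higher, while Hspd1, Hspe1, Hspa9 and Lonp1 were lower. Of the 16 tested genes in the list with Hspa9 and Lonp1, 13 were not called and 1 was higher. The part of the shift in mitochondrial reads in those results was not tested. Endothelial and epithelial markers were at or near 0 in every library, with at most 0.0850 FPKM summed over a list.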

How the data were processed

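Total RNA was extracted with TRIzol and made into libraries with the VAHTS Universal V6 kit, per the labels' protocols. Per the submitters' processing notes, the tools were fastp, HISAT2 and HTSeq, with the build mm10. Their versions, the annotation, the strand setting and the handling of reads matching several genes are not stated there. The deposited values are FPKM, made by the authors, in 6 columns matched to samples by name.

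Whole reads and library totals were recovered from ratios of a gene's FPKM between libraries and the length of mitochondrial COX1 (1545 bp), and all 21436 genes gave whole reads (ratio tolerance at most 1e-11). Differences (co-culture minus alone) were tested with limma 3.58.1 in R 4.3.3, by lmFit and eBayes with trend, on log2(FPKM + 1). Genes under a mean of 1 FPKM were left out. The script was tested on simulated reads with the same setting of spread for every gene, which checks the code and not the calls reported here. Adding 1 understates changes of low genes. The heat shock genes and the lists were chosen with earlier results of these data known. All the heat shock genes are named, up to 4 called genes of each list by smallest p, and the 5 genes most like Hsph1, except 1 gene that is not reported here. Alternatives covered the pseudocount, filter, scaling, trend, threshold, replicate block, limma-voom on recovered reads and each library left out.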

Additional observations from a re-analysis of the deposited data

How the results depend on the processing

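The calls on Hsph1, Hspd1 and Hspe1 were kept under all 17 alternatives, with log2 changes of −0.50 to −0.38 for Hsph1, −0.44 to −0.32 for Hspd1 and −0.21 to −0.15 for Hspe1. The call on Hsp90aa1 was lost with no filter (adjusted p = 0.0767), quantile normalization (0.0568), no trend (0.0612), at the stricter threshold of 0.01 (0.0262), and without co-culture replicate 1 or 3. The 1 gene called higher, Hspa1a, numbered 0 with no filter, with a filter at a mean of 5 FPKM (which removes it) and at the threshold of 0.01, and the number called higher ran from 0 to 2 as single libraries were left out. Over all tested genes the threshold of 0.01 left 635 higher and 1073 lower, and leaving out single libraries gave 925 (without co-culture replicate 3) to 1419 higher. The log2 change of Dnajb1 turned to −0.0049 with median-ratio scaling, −0.0034 with TPM scaling, −0.014 without co-culture replicate 3, −0.0010 without alone replicate 1 and −0.019 without alone replicate 2, and ran up to 0.029 without alone replicate 3. The cause of these shifts was not tested. The labels do not say whether libraries with the same replicate number belong together. Deviations of same-numbered libraries from their group means correlated at −0.044, 0.11 and −0.083, which cannot settle this with 3 libraries a group. With the replicate number as a block, 1258 genes were called higher and 1640 lower, and of the heat shock genes 1 higher and 3 lower, with Hsp90aa1 at an adjusted p of 0.0502. The paired ratios gave the same log2 differences, with Hsph1 to Hspa8 at an exact p of 0.25, the smallest for 3 pairs. Depth limits Hspa1a most, with 132 to 226 reads a library.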
